A study of Drosophila melanogaster and Drosophila miranda with 8 samples.

Results

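The regions described here are the CLAMP ChIP-seq peaks on chromosome arm 3L of *D. melanogaster*, taken by position alone from the peak lists of 2 ChIP replicates. There were 1781 peaks on 3L of 9080 in the list of replicate 1 and 1691 of 8792 in the list of replicate 2, or 3472 of the 33972 peaks of the whole series. The separate sequence 3LHet, which holds heterochromatin of the same arm, was not included. Both replicates came from wild type female larvae of the third instar kept at 21°C, whose chromatin was precipitated with an antibody against CLAMP, and each was set against its own input, sonicated chromatin sequenced without the antibody. The larvae were ground whole and in pools, so the peaks average over all larval tissues. The series also holds ChIP and input libraries from wild type female larvae of *D. miranda*, kept at 18°C. No larvae lacking CLAMP were analysed here, so the peaks have no background list from animals without the protein. The labels do not say whether the replicates were separate pools of animals, so the spread between them may be technical.

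CLAMP is a zinc finger protein that binds GA-repeats and, in males, links the MSL dosage compensation complex to the X-chromosome. It is present in both sexes and also binds many sites on the autosomes, where the MSL complex is largely absent. Arm 3L is the left arm of the third chromosome and corresponds to Muller element D, one of the conserved chromosome arms of *Drosophila*. Element D is an autosome in *D. melanogaster* but became part of the X-chromosome in the lineage of *D. miranda*. Coordinates run from the telomere at the low end to the pericentric heterochromatin at the high end.

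The first comparison asked whether 3L carried more or fewer peaks for its length than other arms. In replicate 1, 3L held 72.6 peaks per Mb (exact 95% Poisson interval 69.3 to 76.0), against 77.0 on 2L, 2R and 3R together and 69.9 on X. In replicate 2, it held 68.9 per Mb (65.7 to 72.3), against 70.1 on the other 3 autosomal arms and 70.0 on X. The length of an arm was counted up to the last base under any peak, which is 24.5 Mb for 3L. The density of 3L was thus near that of X and of the other autosomal arms combined in both lists. The ratio to 2L, 2R and 3R was 0.943 in replicate 1 by an exact test (95% interval 0.893 to 0.995, adjusted p = 0.277) and 0.983 in replicate 2 (0.930 to 1.04, adjusted p = 0.907). The ratio to X was 1.04 in replicate 1 (0.969 to 1.11, adjusted p = 0.891, exact test) and 0.985 in replicate 2 (0.919 to 1.06, adjusted p = 0.907). The test is the exact conditional binomial test, two-sided, with Benjamini-Hochberg adjustment over 9 density ratios. The intervals cover counting error only, since peaks of 1 library are not replicates.

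**Figure D1:**
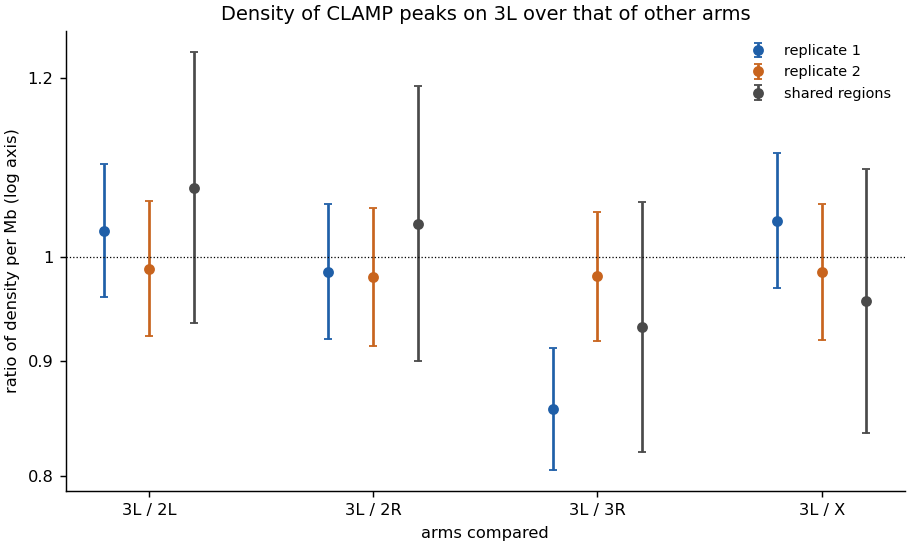
Ratio of peak density on 3L to that on 2L, 2R, 3R and X (log axis), for the peaks of each replicate and for the regions shared by both, with exact 95% intervals as bars. Every interval includes 1 except that of replicate 1 against 3R, where the ratio is 0.857.

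Single arms stood apart from 3L in 1 replicate only. Against 3R alone, the density of 3L in replicate 1 was lower, at 72.6 against 84.7 peaks per Mb, a ratio of 0.857 (0.805 to 0.912, adjusted p = 7.17e-06 by the same exact test). In replicate 2, the same ratio was 0.981 (0.919 to 1.05, adjusted p = 0.794 by the exact test). The difference between the replicates in this ratio was not tested. Against the short chromosome 4, the ratio was 1.00 (0.814 to 1.25) in replicate 1 and 0.777 (0.643 to 0.948) in replicate 2, given without a test. Peaks covered 10.5% of 3L in replicate 1 and 10.9% in replicate 2. For the other assembled arms the range was 10.3% to 12.5% in replicate 1 and 11.1% to 15.5% in replicate 2, with the highest share on 3R in replicate 1 and on chromosome 4 in replicate 2. The share of 3L covered in replicate 2 was thus the lowest among the arms, though by little.

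Along the arm, peaks were spread evenly over most of its length. In bins of 1 Mb, the first 23 bins held 55 to 94 peaks in replicate 1, with a median of 74, and 54 to 82 in replicate 2, also with a median of 74. The variance of these counts was 1.19 times their mean in replicate 1 and 1.12 times in replicate 2, where independent scatter gives 1. Bins rich in peaks in one replicate were only loosely those rich in the other (Pearson r of 0.208, Spearman rho of 0.261 over 23 bins that share the same 2 libraries). The bins with most peaks over both lists were 3000001 to 4000000 (87 peaks in replicate 1 and 81 in replicate 2), 10000001 to 11000000 (88 and 78) and 12000001 to 13000000 (89 and 75), all in dm3. The bins with fewest were 23000001 to 24000000, 1000001 to 2000000 (62 and 61) and, tied, 1 to 1000000 (72 and 56) and 16000001 to 17000000 (74 and 54). The telomere-side part of the arm, up to its midpoint, held 913 peaks against 868 on the centromere side in replicate 1, and 846 against 845 in replicate 2. The density ratios were 1.05 (0.957 to 1.16, adjusted p = 0.891) and 1.00 (0.909 to 1.10, adjusted p = 1) by the exact test, and both intervals included 1.

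**Figure D2:**
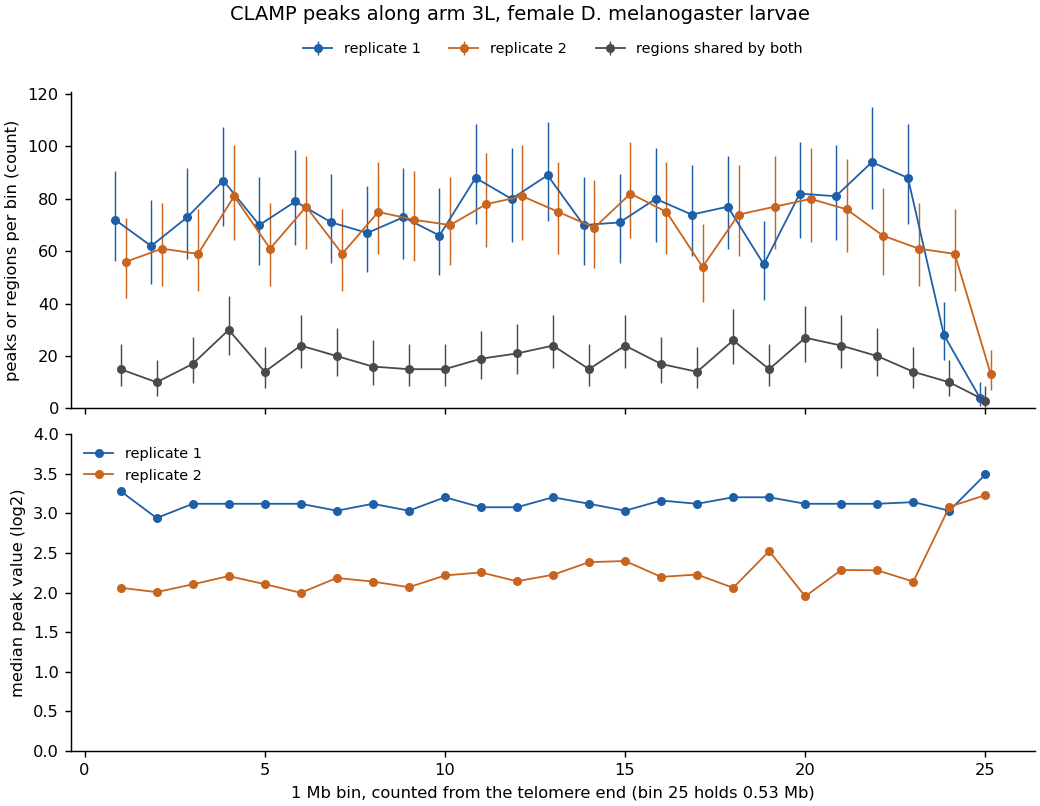
Upper panel, number of peaks of replicate 1, replicate 2 and regions shared by both in bins of 1 Mb along 3L, counted from the telomere end, with exact 95% Poisson intervals as bars. Lower panel, median log2 value of the peaks in each bin. Counts hold between 54 and 94 per replicate over the first 23 bins. In bin 24, replicate 1 drops to 28. Replicate 2 holds 59 there, within its range of 54 to 82 over the earlier bins, and its median value reaches 3.08.

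The evenness ended at the centromere side, where the 2 replicates also parted. The bin from 23000001 to 24000000 held 28 peaks in replicate 1 and 59 in replicate 2, and the rest of the arm, from 24000001 to 24534929, held 4 and 13. Taking the last 1.5 Mb of the arm, a window chosen after the bins had been seen, replicate 1 had 29 peaks or 19.3 per Mb, against 76.1 per Mb on the rest of 3L. Replicate 2 had 69 peaks or 46.0 per Mb there, against 70.4 on the rest. Both lists were thus thinner over this window as a whole, and replicate 1 more so, a difference that was not tested. In replicate 2, the 59 peaks from 23000001 to 24000000 were within the range of the first 23 bins, 54 to 82. The thinning of that list was plainest beyond 24000000, where it held 13 peaks. In replicate 1, the same end of other arms was thinner too, with 43.3 per Mb against 72.6 on the rest of 2L, 49.3 against 75.5 on 2R and 48.0 against 71.5 on X, but 86.0 against 84.6 on 3R. In replicate 2, it was thinner on X, with 53.3 against 71.2 per Mb, and not on 2L (71.3 against 69.6), 2R (74.0 against 70.0) or 3R (74.0 against 70.1). The 3 longest stretches without a peak of either replicate also lay there, from 24355113 to 24529078 (174 kb), 24243208 to 24354105 (111 kb) and 23781538 to 23882266 (100.7 kb).

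The values of the peaks at this end differed between the replicates as well. The value of a peak is read here as a log2 enrichment of ChIP tags over those of the input, after scaling by library size. In replicate 2, the median value of the peaks in the last 1.5 Mb was 3.16, against 2.19 on the rest of 3L, and 5 of the 10 highest values on the arm were there. In replicate 1, the median was 3.03 in the window, against 3.12 on the rest, with 1 of the 11 highest values (11 because of ties) in this window. A high median next to the centromere in replicate 2 was also found on other arms. It was 3.16 at the same end of 2L, against 2.25 on the rest of that arm, and 2.92 at that of 2R, against 2.13, but 2.29 against 2.08 on 3R and 2.26 against 2.27 on X. A further count kept only the peaks at or above the median value of their whole list. On 3L these were 957 of 1781 peaks in replicate 1, where many values are tied, and 826 of 1691 in replicate 2. In replicate 2, the telomere-side part of 3L then held 368 peaks against 458 on the centromere side. The ratio was 0.803 (0.699 to 0.924, adjusted p = 0.0175, exact test). Without the last 1.5 Mb it was 0.816 (adjusted p = 0.0469, exact test), so these peaks were less dense on the telomere side of the remaining arm too. The median value of replicate 2 was 2.14 on the telomere side of 3L and 2.30 on the centromere side. It was lower on the telomere side of the other arms as well, at 2.21 against 2.40 on 2L, 2.11 against 2.23 on 2R, 2.06 against 2.10 on 3R and 2.23 against 2.33 on X. In replicate 1, the peaks selected by value gave a ratio of 1.01 over the whole arm (0.892 to 1.15, adjusted p = 0.846, exact test). Without the last 1.5 Mb it was 0.918 (0.806 to 1.04, adjusted p = 0.432, exact test), and both intervals included 1. The list of replicate 1 was thin in that window, which was chosen after the bins had been seen. Leaving the window out thus raises the density of the centromere side and lowers the ratio. No agreement in direction with replicate 2 is drawn from the value below 1. For regions shared by peaks so selected, the ratio over the whole arm was 0.75 (0.522 to 1.07, adjusted p = 0.355, exact test). The ratio of these regions without the last 1.5 Mb was 0.695 (0.482 to 0.997, adjusted p = 0.127, exact test).

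All 3L peaks were at least 1000 bp wide, and their widths gathered at certain sizes, as on the other arms. Widths ranged from 1000 to 4919 bp in replicate 1, with a median of 1282 bp, and from 1000 to 5248 bp in replicate 2, with a median of 1496 bp. In replicate 1, 482 peaks (27.1%) had the minimum width of 1000 bp, whereas 81 (4.79%) did in replicate 2. A second accumulation lay near 2000 bp, with 229 peaks of 1900 to 2100 bp in replicate 1 and 346 in replicate 2, and 131 and 144 peaks were wider than that. These width classes were chosen after a plot of the data had been seen. On the other assembled arms, 25.1% of peaks in replicate 1 and 4.53% in replicate 2 were 1000 bp wide. Those of 1900 to 2100 bp made up 13.8% and 20.6% there, against 12.9% and 20.5% on 3L. Whether the peak caller sets these sizes was not tested. The other arms had median widths of 1284 to 1307 bp in replicate 1 and 1468 to 1732 bp in replicate 2, so the median on 3L was just below this range in replicate 1 and inside it in replicate 2.

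Peak values on 3L had a median of 3.12 (quartiles 2.84 and 3.43, range 0.30 to 5.24) in replicate 1 and 2.21 (1.87 and 2.70, range 0.75 to 6.97) in replicate 2. In replicate 1 they fell on few steps, with 109 distinct values among 1781 peaks, and 263 peaks (14.8%) shared the value 2.84. The 6 most common values, which held 949 peaks, were spaced as the log2 of the consecutive whole numbers 14 to 19 (tolerance 1e-06). The lists do not say what these numbers count. In replicate 2, there were 644 distinct values, and the most common one was shared by 25 peaks. The median on every assembled arm was 3.12 in replicate 1, and from 2.09 to 3.00 in replicate 2, where 3R was lowest and chromosome 4 highest.

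Width and value went together in replicate 1 and weakly against each other in replicate 2. Over the 3L peaks, Spearman's rho between them was 0.616 in replicate 1 and -0.245 in replicate 2, each a description over peaks of 1 library. On the other arms it was 0.584 and -0.223, so both signs held across the genome. The peaks wider than 2100 bp in replicate 1 had a median value of 4.16, against 2.84 for those of exactly 1000 bp. In replicate 2, the medians were 2.78 at 1000 bp, 2.21 between that and 1900 bp, 2.08 from 1900 to 2100 bp and 2.40 above 2100 bp, so values were lowest at intermediate widths. The highest values of replicate 2 on the arm were on narrow peaks. The 10 highest in replicate 2 had a median width of 1052 bp and the 11 highest in replicate 1 a median width of 3452 bp. The tallest peaks of the arm were thus broad in replicate 1 and narrow in replicate 2.

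**Figure D3:**
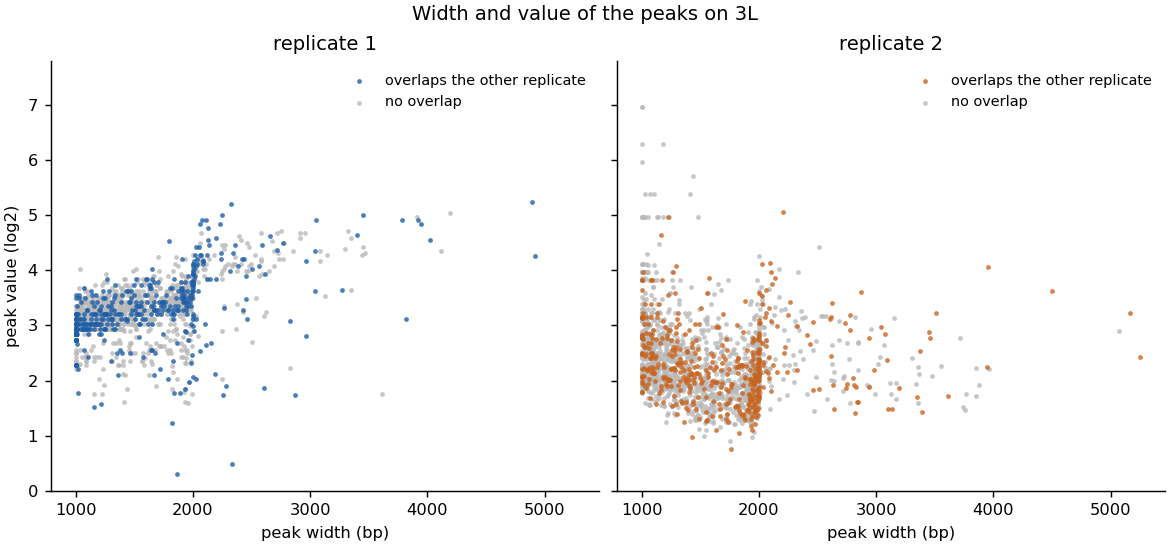
Width (bp) against log2 value of each peak on 3L, with replicate 1 on the left and replicate 2 on the right, and peaks that overlap one of the other replicate in color. Values climb with width in replicate 1 (Spearman's rho 0.616), whereas in replicate 2 the highest values, up to 6.97, belong to peaks near 1000 bp.

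The study used peaks that overlapped between replicates, so the overlap on 3L was examined next. Of the 1781 peaks of replicate 1 on 3L, 473 overlapped a peak of replicate 2 by at least 1 bp (26.6%, exact 95% interval 24.5 to 28.7), where the share over all assembled arms was 25.7%. In the other direction, 462 of 1691 peaks of replicate 2 overlapped (27.3%, 25.2 to 29.5), against 27.4% over all assembled arms. The share on 3L was thus close to the background of the lists in both directions. These peaks formed 449 shared regions, of which 414 held 1 peak of each replicate and none more than 4 peaks. They occurred at 18.3 per Mb (16.6 to 20.1), against 18.2 on 2L, 2R and 3R together and 19.1 on X. The ratios were 1.00 (0.899 to 1.12, adjusted p = 1) and 0.956 (0.836 to 1.09, adjusted p = 0.907) by the exact test. Peaks covered 10.5% and 10.9% of the arm, and the number of overlaps that position alone gives was not estimated.

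Overlap was often partial. Over the 486 overlapping pairs on 3L, the median overlap was 906 bp or 71.8% of the narrower peak, and in 127 pairs (26.1%) the narrower peak lay wholly inside the wider one. The centers were a median of 598 bp apart. In 97 pairs (20.0%) they were within 200 bp. With this limit on the centers, 5.45% of the replicate 1 peaks and 5.74% of the replicate 2 peaks on 3L were shared. A reciprocal overlap of at least 50% left 237 shared regions.

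The share of peaks found again varied with width in both replicates and with value in replicate 1. The widest of 4 classes of width, cut at the quartiles on 3L, was shared at 36.6% in replicate 1 (32.1 to 41.3) and 37.9% in replicate 2 (33.3 to 42.7). The narrowest class was shared at 21.8% (18.2 to 25.7) and 18.4% (14.9 to 22.5). On the other arms, peaks within the same limits were shared at 35.6% and 38.2% in the widest class and 19.8% and 20.9% in the narrowest, so 3L was close to them. The chance that a peak meets another grows with its width, and the share due to this was not tested. By value, the highest class of replicate 1 was shared at 33.3% (28.8 to 37.9) and the lowest at 24.5% (20.7 to 28.7), while in replicate 2 all 4 classes lay between 27.0% and 27.5%. The other arms were close to 3L in this as well, with 30.9% and 24.3% in the highest and lowest class of replicate 1. The tallest peaks, a set added after seeing the data, showed the same contrast. In replicate 1, 46 of the 105 peaks at 4.12 or higher were shared (43.8%, 34.1 to 53.8). In replicate 2, 26 of the peaks at 3.55 or higher were shared (25.7%, 17.6 to 35.4). The median widths of these sets were 2362 and 1128 bp. All 3L peaks over 2100 bp were shared at 43.5% and 41.7%, and those of exactly 1000 bp at 21.8% and 25.9%. The highest and lowest value classes on 3L had median widths of 1953 and 1000 bp in replicate 1. In replicate 2 they had 1219.5 and 1747.5 bp. Whether value bears on the share apart from width was not tested.

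**Figure D4:**
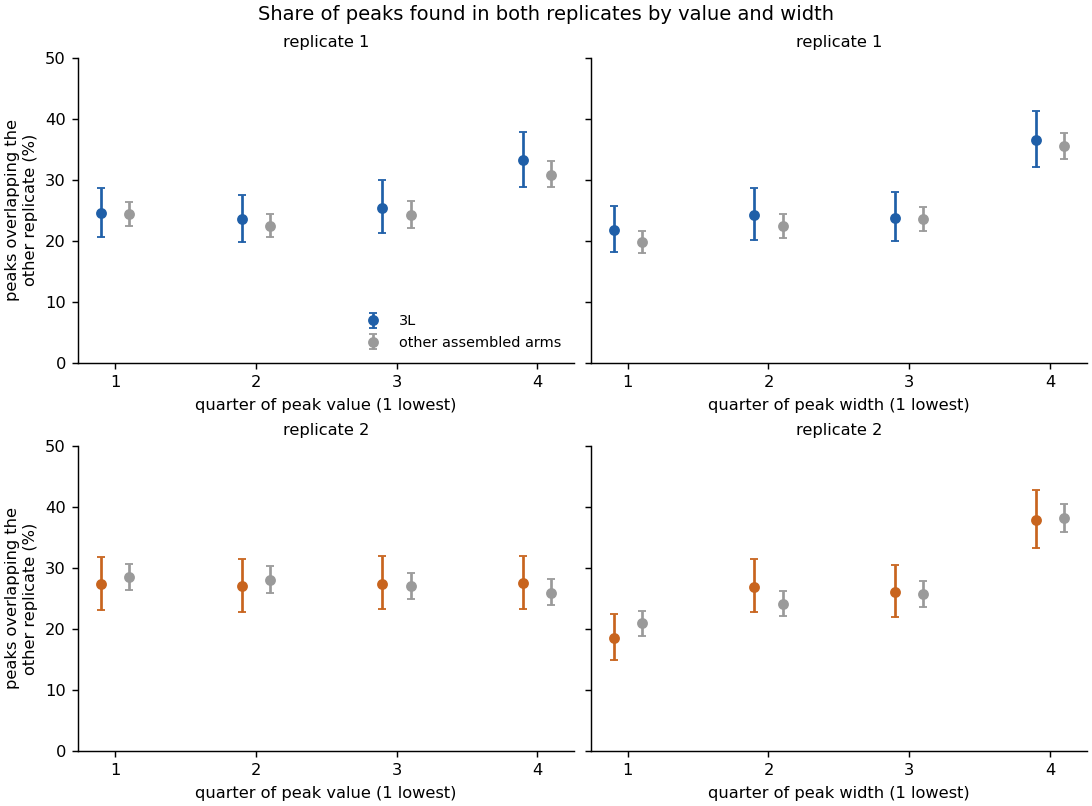
Share of peaks that overlap a peak of the other replicate (%), in 4 classes of peak value (left) and peak width (right), for replicate 1 (top) and replicate 2 (bottom), on 3L and on the other assembled arms, with exact 95% intervals as bars. The class limits are the quartiles on 3L. The widest class stands highest in both replicates, at 36.6% and 37.9% on 3L, and the shares of replicate 2 on 3L lie between 27.0% and 27.5% in all classes of value.

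Where peaks did overlap, their values in the 2 replicates were nearly unrelated. Over the 486 pairs on 3L, Pearson's r was 0.0617 and Spearman's rho 0.0502, and over the 1906 pairs on the other arms they were 0.0789 and 0.0574. Over the 97 pairs with centers within 200 bp, Pearson's r was 0.142 and Spearman's rho 0.0148, so both stayed weak. These are descriptions over peaks of the same 2 libraries. The value of replicate 1 was the higher in 419 of the 486 pairs (86.2%), by a median of 0.99 over all pairs. Over all 3L peaks, overlapping or not, the median value was also higher in replicate 1, at 3.12 against 2.21. A smaller set was chosen after these values had been seen, the 36 pairs with both peaks at least 2000 bp wide. Among these, 15 had centers within 200 bp (41.7%, 25.5 to 59.2), against 82 of the other 450 (18.2%, 14.8 to 22.1). Their median values were 4.16 and 2.76 in replicates 1 and 2, against 3.14 and 2.19 in the other pairs, and Spearman's rho was 0.340, though 0.0461 over the 176 such pairs on the other arms. There, 71 of the 176 had centers within 200 bp (40.3%), so wide pairs were closely centered on those arms as well.

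**Figure D5:**
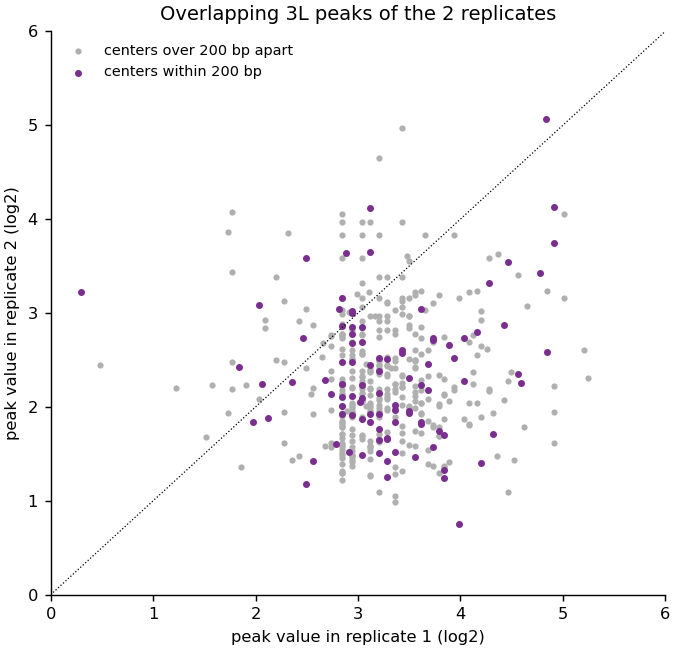
Log2 value in replicate 1 against that in replicate 2 for the 486 overlapping pairs of peaks on 3L, with the 97 pairs whose centers lie within 200 bp in purple and a dotted line of equal values. Most pairs lie below the line, with the value of replicate 1 higher in 419, and the cloud shows no trend (Spearman's rho 0.0502).

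The 10 regions of 3L with the best mean rank of value in both replicates were of mixed shape, and 5 of them held closely centered peaks of just over 2000 bp. The best lay at 12601504 to 12603739 (dm3), with values of 4.84 in replicate 1 and 5.07 in replicate 2, ranks 14 and 11 on the arm. Its 2 peaks were 2236 and 2209 bp wide, and their centers were 9.5 bp apart. The next was at 20509596 to 20511736, with values of 4.92 and 4.13 and centers 39.5 bp apart. After it came the region at 10848726 to 10852683, where 2 peaks of replicate 1, the taller at 5.01, met 1 peak of replicate 2 at 4.05. The fourth lay at 9394096 to 9396210 (4.92 and 3.75, centers 21.5 bp apart) and the fifth at 377077 to 379338, near the telomere (4.78 and 3.43, 64.5 bp apart). In 5 of the first 7 regions both peaks were just over 2000 bp wide and lay almost on top of each other. The peaks of the other 2, at 10848726 to 10852683 and at 9844476 to 9848977 (4.36 and 3.63), were up to 4502 bp wide with centers over 800 bp apart. The seventh, at 4552490 to 4554631, had values of 4.46 and 3.54 and centers 46.0 bp apart.

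The remaining 3 of the 10 best-ranked regions fitted less closely. They lay at 15132185 to 15136613 (4.56 in replicate 1 and 3.40 in replicate 2), 15859574 to 15863455 (4.28 and 3.59) and 23248914 to 23252859 (4.84 and 3.23), with centers between 448 and 1853 bp apart. The last of these is within the sparse centromere side of the arm. Over the 10 regions, ranks ran from 4.5 to 63 of 1781 in replicate 1 and from 11 to 155 of 1691 in replicate 2. The widest shared regions were at 13994437 to 14000551 (6115 bp), 10877464 to 10883338 (5875 bp) and 24529079 to 24534929 (5851 bp). In each of these the centers of the tallest peak of each replicate were 2374 to 2817 bp apart. The first 2 held 2 peaks of replicate 1 and 1 of replicate 2, and the last held 1 of each. Genes at these positions are not given, since no annotation of dm3 was used here.

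The tallest peaks found in 1 replicate only were of opposite kinds. In replicate 1 they were broad, at 4771844 to 4776038 (value 5.03, 4195 bp), 20004705 to 20008617 (4.97, 3913 bp) and 8358659 to 8361408 (4.71, 2750 bp). The nearest peaks of replicate 2 were 1765, 766 and 11915 bp away. In replicate 2 they were narrow, at 23188646 to 23189645 and 23565113 to 23566112 (both 6.97 and 1000 bp wide) and at 4122460 to 4123640 (6.29, 1181 bp). The first of these are both on the sparse centromere side, 32173 and 43926 bp from the nearest peak of replicate 1, while the last lay 159 bp from one. None of the 10 highest peaks of replicate 2 on 3L was shared, against 9 of the 11 highest in replicate 1. The share over all peaks of the assembled arms was 27.4% in replicate 2 and 25.7% in replicate 1. The 10 peaks had a median width of 1052 bp and the 11 peaks one of 3452 bp. Of all replicate 1 peaks on 3L of 3000 bp or more, 46.4% were shared. The part of width in this contrast was not tested. The value 6.97 was also the highest of replicate 2 on 2L, 3R and X.

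Peaks on 3L were spaced by a median of 7783 bp in replicate 1 and 8639 bp in replicate 2, measured from the end of one peak to the start of the next. Gaps under 5 kb made up 37.0% and 33.0%. Most peaks were alone or in pairs at this distance. Linking neighbors under 5 kb apart gave 1123 runs in replicate 1, of which 708 were single peaks and 148 held 3 or more. In replicate 2, it gave 1133 runs with 759 single peaks and 120 of 3 or more. The longest runs held 8 peaks in replicate 1, the first from 7834513 to 7861647, and 7 peaks in replicate 2, the first from 1077586 to 1103807. Median gaps on 2L, 2R, 3R and X were 6768 to 8311 bp in replicate 1 and 8182 to 8535 bp in replicate 2. The peaks of 3L were thus spaced much like those of other arms, with the largest median gap among these 5 arms in replicate 2. Shared regions were a median of 31973 bp apart, and 11.4% of their gaps were under 5 kb.

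Muller element D can be set beside its counterpart in *D. miranda*, where it is X-linked and the lists name the arm that carries it AD. Relative to elements B and E, which are autosomes in both species, the density on 3L was 0.926 (95% interval 0.875 to 0.980) in replicate 1 and 0.984 (0.928 to 1.04) in replicate 2. These elements are 2L and 3R in *D. melanogaster*. In replicate 1, the ratio of 3L was 0.857 (0.805 to 0.912) to 3R but 1.03 (0.960 to 1.10) to 2L. In *D. miranda*, the ratio for AD was 1.04 (0.956 to 1.14) in replicate 1 and 1.07 (1.02 to 1.12) in replicate 2. The whole lists of that species differed much in size, with 3577 and 12523 peaks. For shared regions, the ratio was 0.990 (0.883 to 1.11) on 3L and 1.09 (0.938 to 1.26) on AD. The intervals of the shared regions overlap widely, and the difference between species, which varies together with rearing temperature, was not tested.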

How the data were processed

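ChIP-seq peak lists of 2 replicates per species were analysed. Inputs were used by the authors in peak calling and have no lists of their own here. Per the labels and the study's methods, the authors aligned reads (Bowtie) to dm3 or to a *D. miranda* assembly, kept unique alignments, removed positions with anomalous tag counts, scaled by library size and ran SPP with default settings on each replicate. Tool versions were not given in those sources. The authors deposited start, end and 1 unnamed value per peak, read as log2: on 3L, 68 of 109 and 277 of 644 distinct values had a partner 1 away (tolerance 1e-06). The lists hold no read counts. The study states fewer processed reads for the ChIP library of replicate 2 than for that of replicate 1. Its aligned count for replicate 2 is inconsistent with the percentage given, so depth was not used. Whether depth bears on the differences between the replicates was not tested.

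Starts were taken as counted from 0 and are printed counted from 1. Peaks of the replicates sharing 1 bp or more were linked and merged into shared regions. Only assembled arms (X, 2L, 2R, 3L, 3R, 4) were compared. Densities were tested by the exact conditional binomial test with exact 95% intervals (scipy 1.17.1, pandas 2.3.3, Python 3.11.15), which was tested on simulated data. Shares have Clopper-Pearson intervals. Regions were named by mean rank of value, by width, by gap and by bin, and the highest unshared peaks by value. The members, lists and tests were chosen with earlier results of these data known. Sequence and genes under the peaks were not analysed, since no dm3 genome was used.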

Additional observations from a re-analysis of the deposited data

Results flagged for a closer look

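Peaks also lay on 3LHet, the heterochromatic sequence of the arm that no comparison above uses. There were 16 in replicate 1 and 76 in replicate 2, and their density per length was not computed. Their median log2 values were 3.03 and 3.83, against 3.12 and 2.21 on 3L.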

How the results depend on the processing

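Of 78 alternatives to the results on 3L, 63 stayed within the limits set. A density ratio that crossed 1 was counted among these where neither version passed the threshold, so not all of them kept the direction. In replicate 1, for example, the ratio to the other autosomal arms was 0.943, and 1.03 with 2L alone. The ratio of the telomere to the centromere side in that replicate was 1.05, and 0.977 without the last 1 Mb. The number of shared regions, 449 with an overlap of 1 bp, was 237 with a reciprocal overlap of 50% and 97 with centers within 200 bp. It was 133 with peaks at or above the median value of their list and 164 with those at or above its median width. The share of replicate 1 peaks was then 13.3%, 5.45%, 14.1% and 19.4%, and that of replicate 2 peaks 14.0%, 5.74%, 16.6% and 20.3%. The density ratio to the other autosomal arms in replicate 1 passed the threshold with 3R alone (0.857). The ratio of the telomere to the centromere side in replicate 2, 1.00 with all peaks, turned to 0.803 with the peaks at or above the median value. It was 0.816 when the last 1.5 Mb was also left out, an alternative chosen after seeing the data. The cause was not tested. Either replicate alone gave density ratios of 0.943 to 0.983 to the other autosomal arms and 0.985 to 1.04 to X. No paired analysis was possible because the input libraries have no lists of their own and the other groups are different species. The GA-repeat and start site alternatives were not run, since no dm3 genome was used. With 2 replicates and no read counts, no spread between animals could be estimated.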
